A study of Drosophila melanogaster with 22 samples.

Results

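The 4 position-specific integrin genes mys, if, mew and scb were followed through 9 transcript measurements of Drosophila melanogaster. They were taken by gene name from 3 deposited tables, in which 13686 genes have a name that occurs once, and all 4 were found in every table. The series held 22 samples, of which 11 were open-chromatin (FAIRE) samples, 2 were genomic DNA inputs and 9 were RNA samples. RNA came from whole OregonR embryos at 2-4, 6-8 and 16-18 h after egg laying. It also came from the T3 leg (thoracic segment 3), haltere and wing imaginal discs of larvae in instar 3, and from the T3 leg, haltere and wing of pharate adults at stage P14, all of the strain y;cn,bw,sp. The embryos and the appendages thus differ in strain as well as in stage. Imaginal discs are the larval epithelial sacs that form the adult appendages, and pharate adults are fully formed flies still inside the pupal case.

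Integrins are receptors made of 1 alpha and 1 beta chain that span the cell membrane. They bind laminins and other matrix proteins outside the cell and are linked to the actin cytoskeleton by talin, kindlin and the integrin-linked kinase complex. In flies they are known for holding muscles to tendon cells and for holding the dorsal and ventral layers of the wing together. mys encodes the beta PS chain, the common partner of the alpha chains. mew encodes alpha PS1, known from the dorsal wing epithelium and from the epidermal side of muscle attachments; if encodes alpha PS2, known from the ventral wing epithelium and from muscle; scb encodes alpha PS3, known from dorsal closure and from memory formation.

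Transcript levels were given in FPKM, in which read fragments are divided by transcript length and by the total mapped, so that levels of genes of different length can be set side by side. Each tissue or stage had 1 value, which the labels say combines 2 replicates. No spread between replicates is known, no test was possible, and "higher" and "lower" here describe the listed values only. The depth is unknown. The tables were treated as normalised separately, and ratios were taken within a table. A ratio is log2((FPKM + 1)/(FPKM + 1)), which understates differences of low genes, and genes are called 2-fold apart where 1 of the columns reached 5 FPKM. In whole tissue, fewer cells of a type and less RNA per cell cannot be told apart. Genes that define the tissues were where the labels put them: vg, the wing-field selector, was 314 FPKM in the wing disc and 2.76 FPKM in the leg disc, Sp1, a leg gene, was 784 FPKM in the leg disc and 4.54 FPKM in the wing disc, and zen, an early embryonic gene, was 555 FPKM at 2-4 h and 1.57 FPKM at 16-18 h. Markers of other tissues were uneven among the discs, with summed levels of 6 salivary glue genes of 7880, 27899 and 2418 FPKM and of 8 fat body genes of 4279, 15274 and 1197 FPKM in the leg, haltere and wing disc. Their part in the integrin results was not tested. Several abundant genes were listed at exactly 0 in some columns, among them the muscle myosin gene Mhc in the pharate leg. No integrin member was, and no ratio is given here against a 0. Counts of gene lists below leave out genes at 0 in 1 of the columns, but the shares of all genes beside them keep such genes. The pools are thus unlike. Between 6-8 h and 16-18 h the median log2 ratio was -0.14 over all genes tested and -0.43 over those above 0 in both columns.

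mys was the most abundant of the 4 genes in each of the 9 columns. In embryos it was listed at 371 FPKM at 2-4 h, 473 FPKM at 6-8 h and 689 FPKM at 16-18 h. In leg, haltere and wing discs it was 228, 179 and 265 FPKM. In the pharate leg, haltere and wing it was 1600.45, 693 and 2243 FPKM. The beta chain transcript was thus lowest at 2-4 h and in both haltere samples of their tables. It was above 75.7% of the genes listed above 0 already at 2-4 h and above 95.4% of them in the pharate wing. Its highest embryonic value was 1.86-fold its lowest, a span smaller than that of all but 12.0% of genes in that table.

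if, the alpha PS2 gene, had the widest span of the 4 in embryos and in discs; in pharate appendages that of mys, 3.24-fold, was slightly wider. Its embryonic levels were 26.8, 51.0 and 346 FPKM at 2-4, 6-8 and 16-18 h. Its levels in leg, haltere and wing discs were 15.3, 41.9 and 73.5 FPKM. Its pharate levels were 1227 FPKM in legs, 399 FPKM in halteres and 1226 FPKM in wings, so that leg and wing had nearly the same value and the haltere stood below both. The highest value was 12.9-fold the lowest in embryos, 4.81-fold in discs and 3.08-fold in pharate appendages. In discs 85.6% of genes had a smaller span. if stood above 21.4% of the genes listed above 0 in the leg disc and above 92.9% of them in the pharate leg.

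mew, the alpha PS1 gene, was the most abundant alpha gene in early embryos and in all 3 discs. It was listed at 103, 191 and 283 FPKM in embryos of 2-4, 6-8 and 16-18 h. In leg, haltere and wing discs it was 96.2, 125 and 234 FPKM, and in the wing disc it came close to the level of mys. In pharate appendages it was 182 FPKM in leg, 132 FPKM in haltere and 163 FPKM in wing, a 1.38-fold span that was smaller than the span of all but 15.7% of genes. In the discs its span was 2.43-fold, and 79.8% of genes had a smaller one. In an annotation of another genome release, mew overlaps the gene CG32639, which was listed at 0 in 8 of the 9 columns and at 5.49 FPKM in the wing disc, and CG15742, whose level is not reported here. How reads in overlapping genes were counted is not given in the sources used here.

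scb, the alpha PS3 gene, was listed at 15.5 FPKM at 2-4 h, 106 FPKM at 6-8 h and 186 FPKM at 16-18 h. Its disc levels lay close together, at 53.0 FPKM in leg, 41.0 FPKM in haltere and 54.1 FPKM in wing. Its pharate levels were 184.5 FPKM in leg, 358 FPKM in haltere and 481 FPKM in wing. Among pharate appendages scb was the 1 gene of the 4 with its lowest value in the leg and not in the haltere. Its span was 12.02-fold in embryos, 1.32-fold in discs and 2.61-fold in pharate appendages.

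**Figure D1:**
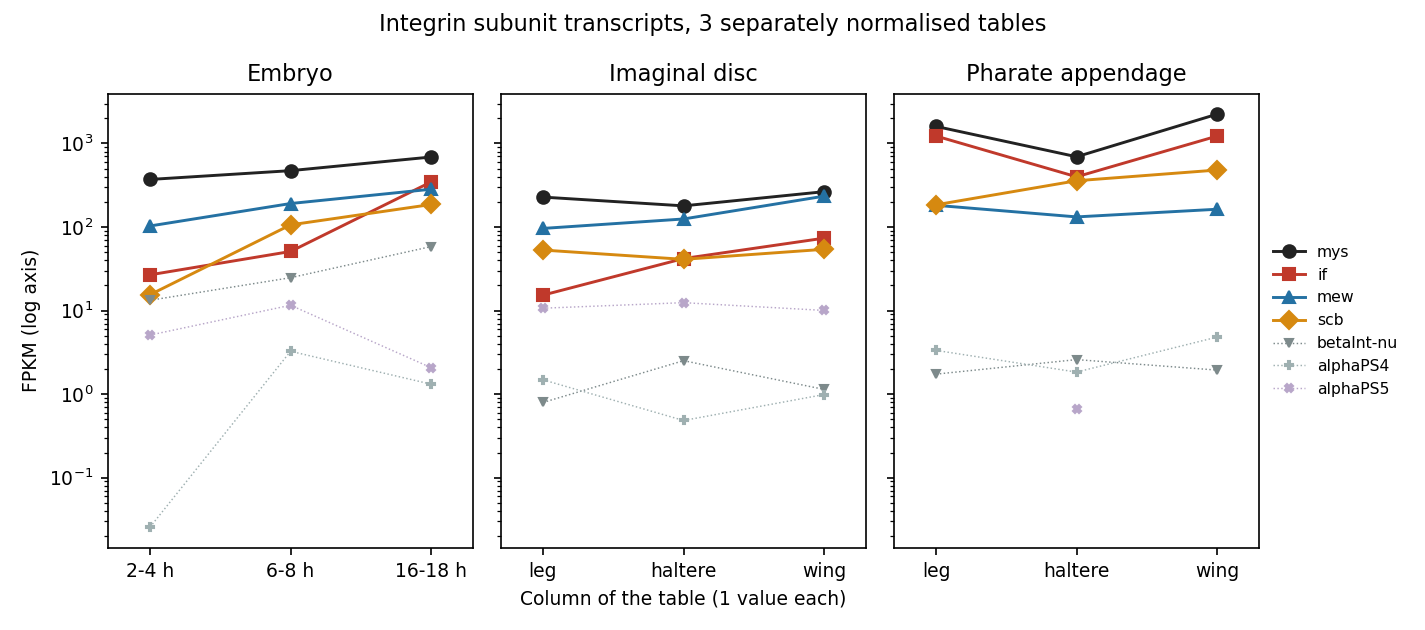
FPKM (log axis) of 7 integrin subunit genes in the 9 columns, 1 point per gene and column, in 3 panels for the 3 tables; lines join the points of a gene and zeros are not drawn. mys lies above the other genes in each column, if runs from 26.8 to 346 FPKM in embryos and from 15.3 to 73.5 FPKM in discs, and mew stays between 132 and 182 FPKM in pharate appendages.

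The plot of levels also shows the 3 other integrin subunits of the fly. In each column they were listed below all 4 members, by little for betaInt-nu and scb at 2-4 h and for alphaPS5 and if in the leg disc. betaInt-nu, a second beta chain known from the midgut, was 13.3, 24.7 and 58.3 FPKM in embryos of 2-4, 6-8 and 16-18 h, and between 0.795 and 2.59 FPKM in the discs and pharate appendages. alphaPS5 was between 10.04 and 12.4 FPKM in the discs, and it was listed at 0 in the pharate leg and wing. alphaPS4 did not exceed 4.82 FPKM, its value in the pharate wing. betaInt-nu was at least 2-fold higher at 16-18 h than at 6-8 h, beside 34.7% of all genes tested, and than at 2-4 h, beside 41.2%. alphaPS5 was at least 2-fold higher at 6-8 h than at 2-4 h, beside 25.9%, and lower at 16-18 h than at 6-8 h, beside 31.1%. No call was possible for alphaPS4 in any comparison, since it stayed below 5 FPKM. The same held for betaInt-nu in discs and for betaInt-nu and alphaPS5 in pharate appendages.

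The leading alpha chain transcript was not the same in all columns. mew made up 70.9% of the summed FPKM of mew, if and scb at 2-4 h, 54.9% at 6-8 h and 34.7% at 16-18 h. if made up 18.4%, 14.6% and 42.4% at those times, and scb 10.7%, 30.5% and 22.8%. In the discs mew was the majority, with 58.5% in leg, 60.1% in haltere and 64.7% in wing. if supplied 9.30% in the leg disc against 20.2% and 20.3% in the haltere and wing discs, and scb 32.2%, 19.7% and 15.0%. In pharate appendages if led, with 77.0% in leg, 44.9% in haltere and 65.6% in wing, while mew was 11.4%, 14.9% and 8.73%. The pharate haltere stood out by its scb share of 40.3%, against 11.6% in the leg and 25.7% in the wing. The leading alpha gene was thus mew at 2-4 h, at 6-8 h and in the discs, and if at 16-18 h and in the 3 pharate appendages. These shares are taken within a column and do not depend on how columns were scaled.

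**Figure D2:**
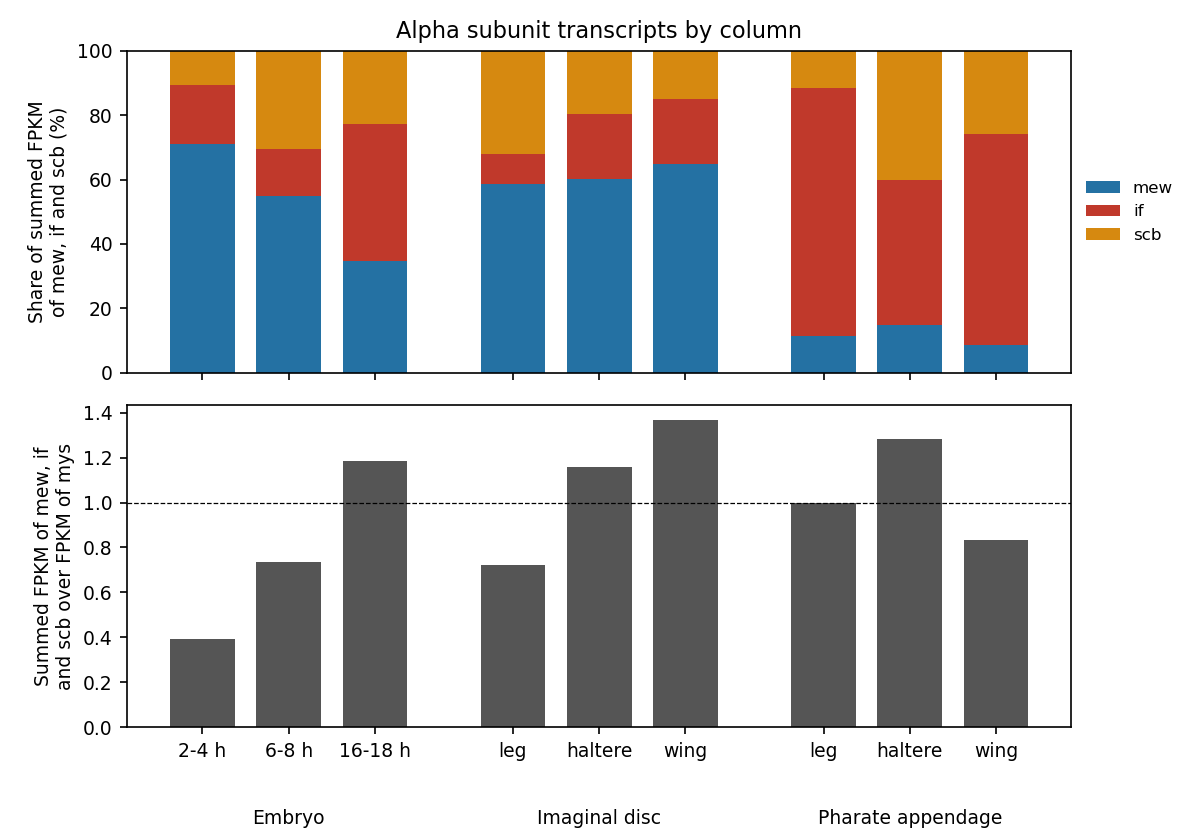
Upper panel, share (%) of the summed FPKM of mew, if and scb that each gene supplied in each of the 9 columns; lower panel, that sum divided by the FPKM of mys, with a dashed line at 1. mew holds 70.9% at 2-4 h and if holds 77.0% in the pharate leg, and the ratio runs from 0.391 at 2-4 h to 1.37 in the wing disc.

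The sum of the 3 alpha transcripts was 0.391 of the mys level at 2-4 h, 0.737 at 6-8 h and 1.18 at 16-18 h, as the lower panel of the plot of shares shows. In discs it was 0.721 in leg, 1.16 in haltere and 1.37 in wing. In pharate appendages it was 0.996 in leg, 1.28 in haltere and 0.834 in wing. Alpha transcripts were thus below the beta transcript at 2-4 h, at 6-8 h, in the leg disc and in the pharate wing. They were about level with it in the pharate leg, and above it in late embryos, haltere and wing discs and the pharate haltere.

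Across embryonic time, the levels of all 4 genes were highest at 16-18 h and lowest at 2-4 h. Between 2-4 h and 6-8 h the log2 ratio was 2.70 for scb, 0.90 for if, 0.89 for mew and 0.35 for mys. scb was the 1 of 4 members at least 2-fold higher, in a comparison in which 25.9% of the 8244 genes tested were higher. Between 6-8 h and 16-18 h the ratio was 2.74 for if, 0.80 for scb, 0.57 for mew and 0.54 for mys. Only if of the 4 was at least 2-fold higher, beside 34.7% of all genes tested. Over the whole interval if, scb and mew were at least 2-fold higher at 16-18 h than at 2-4 h, by 3.64, 3.50 and 1.45 on the log2 scale, beside 41.2% of genes, and mys was higher by 0.89. The scb difference was mostly between the first times and the if difference mostly between the later ones. The number of members called depended on the scaling of the columns: between 6-8 h and 16-18 h all 4 were at least 2-fold higher when columns were set to a common upper quartile, with ratios of 1.06 for mys, 3.25 for if, 1.08 for mew and 1.32 for scb. That rescaling moved the median of all genes by 0.55 in this comparison and by 0.99 between 2-4 h and 16-18 h. The order of the times was the same for each member with either rescaling. Summed levels of 17 muscle genes were 1444, 3517 and 120335 FPKM at 2-4, 6-8 and 16-18 h, with Mhc and the troponin T gene up listed at 0 at 16-18 h. Their part in the integrin levels was not tested.

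Among the discs, if and mew were lowest in the leg. Between the leg and the wing disc the log2 ratio was -2.19 for if, -1.27 for mew, -0.21 for mys and -0.03 for scb. if and mew, 2 of the 4 members, were at least 2-fold lower in the leg disc, in a comparison in which 3.55% of the 8321 genes tested were lower; of the genes listed above 0 in both discs, 2.10% were. Only 2.16% of genes had a lower ratio than if, and 2.96% a lower ratio than mew. Between the haltere and the wing disc the ratios were -0.90 for mew, -0.80 for if, -0.56 for mys and -0.39 for scb. All 4 were thus listed lower in the haltere disc, 0 of the 4 by at least 2-fold, beside 4.29% of genes that were. Between the leg and the haltere disc if was lower in the leg by -1.40, the 1 of 4 members at least 2-fold apart in that direction beside 12.6% of genes, while mew was at -0.37, mys at 0.35 and scb at 0.36. The order for if and for mew was therefore leg, haltere, wing, and for mys it was haltere, leg, wing.

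The wing disc, where the integrins were highest, was the disc with the lowest summed levels of muscle, salivary gland, fat body, midgut and haemocyte markers. The sums of 17 muscle genes were 27758.5 FPKM in leg, 91903 FPKM in haltere and 9172 FPKM in wing discs, and 13 of 15 muscle genes with a ratio were at least 2-fold higher in the haltere than in the wing disc, beside 15.5% of all genes. The sums of 10 midgut genes were 682, 3688 and 177 FPKM and those of 6 haemocyte genes 266, 590 and 138 FPKM in leg, haltere and wing disc. He, the gene of the haemocyte surface protein hemese, was 48.4, 166 and 17.5 FPKM. The part of these markers in the integrin ratios was not tested.

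In pharate appendages the haltere held the lowest levels of mys, if and mew. Between the haltere and the wing the log2 ratio was -1.69 for mys and -1.62 for if, against -0.43 for scb and -0.30 for mew. mys and if were the 2 of 4 members at least 2-fold lower, beside 18.8% of the 8990 genes tested. Between the leg and the haltere the ratio was 1.62 for if and 1.21 for mys, so that 2 of 4 members were at least 2-fold higher in the leg, beside 17.1% of genes. mew was at 0.46 and scb at -0.95 in that comparison. Between the leg and the wing if was at 0.00, mew at 0.16 and mys at -0.49, and scb was the 1 of 4 members at least 2-fold lower in the leg, at -1.38, beside 14.7% of genes. The share of genes with a lower ratio than scb was 9.69%. mys and if thus separated the haltere from leg and wing, and scb was lowest in the leg, at least 2-fold below the wing. Against the haltere scb in the leg missed 2-fold lower at -0.95. It passed at -1.05 with columns set to a common upper quartile, and missed at -0.987 with columns rescaled by median of ratios. Muscle marker sums were 656802 FPKM in leg, 31439 FPKM in haltere and 62618 FPKM in wing, with Mhc and up listed at 0 in all 3. The part of muscle in these ratios was not tested. The sums of 6 haemocyte markers were 1013, 1153 and 754 FPKM.

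**Figure D3:**
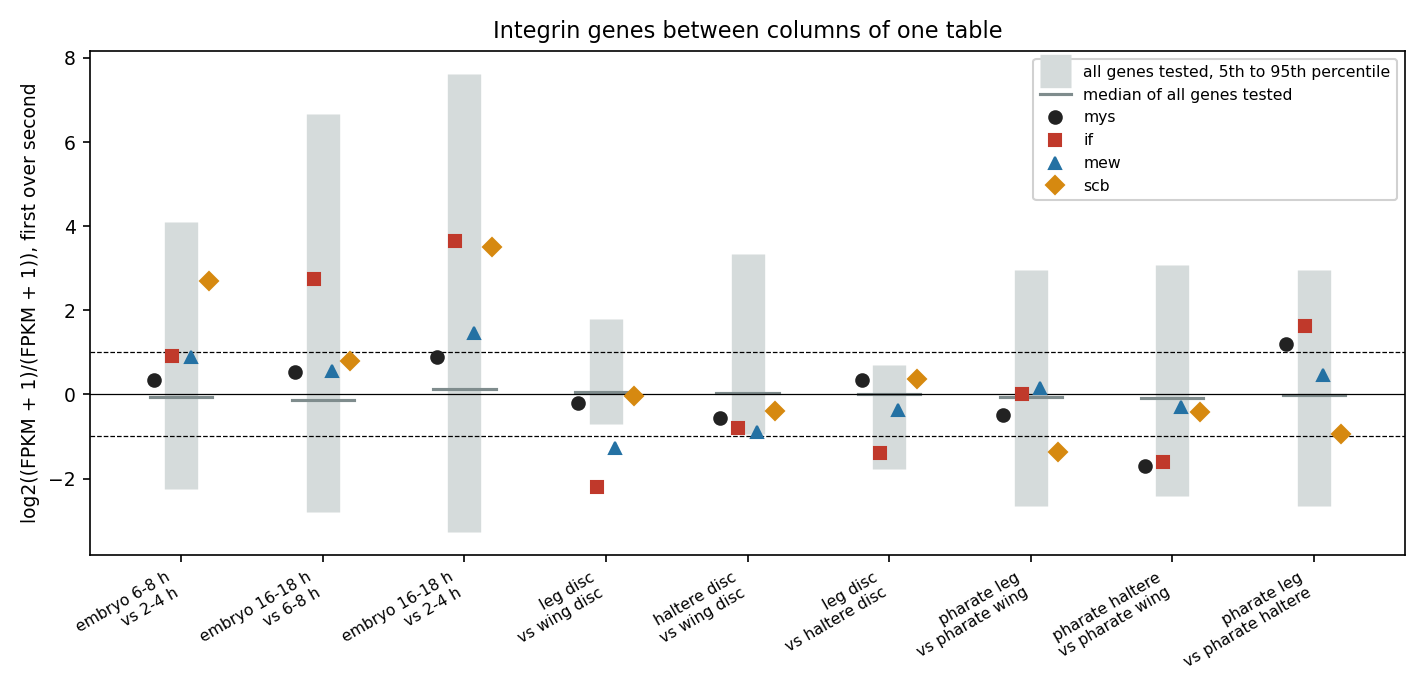
log2 ratio of mys, if, mew and scb in the 9 comparisons within a table (symbols), beside the median (grey line) and the 5th to 95th percentile (grey bar) of all genes tested; dashed lines mark 2-fold. if and mew lie under the bar between the leg and wing discs, at -2.19 and -1.27, and the embryonic ratios of the 4 genes lie inside the wide bars of those comparisons.

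Over the 9 comparisons, 7 of the 36 member values were at least 2-fold higher, 6 were at least 2-fold lower and 23 were within 2-fold, as the plot of ratios shows. if accounted for 6 of these calls, scb for 3, and mys and mew for 2 each. The comparisons of a table share columns, so these counts are not independent of each other. For the calls made, the share of all genes called in the same direction ran from 3.55% between leg and wing discs to 41.2% between 2-4 h and 16-18 h. The totals therefore have no single background and are a tally only.

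The laminins and tiggrin, the integrin ligands, were matched for 5 of 6 listed genes. At 2-4 h LanA, a laminin alpha chain, was 15.1 FPKM, LanB1, the beta chain, 80.0 FPKM and LanB2, the gamma chain, 85.1 FPKM. At 6-8 h they were 1122, 925 and 821 FPKM, and at 16-18 h 1428, 1264 and 1255 FPKM. All 5 ligand genes with a ratio were at least 2-fold higher at 6-8 h than at 2-4 h, beside 25.9% of all genes. Their median log2 ratio was 3.52 against -0.16 over all genes above 0 in both columns. Between 6-8 h and 16-18 h 1 of 5 was higher, beside 34.7%, namely Tig, the gene of tiggrin, a ligand of alpha PS2. It was 0.847, 23.6 and 1234 FPKM at 2-4, 6-8 and 16-18 h. The interval with the highest ratio was thus the earlier one for the laminins and for scb, and the later one for Tig and for if. Of the other members, mew had its higher ratio in the earlier interval, at 0.89 against 0.57. mys had its higher ratio in the later one, at 0.54 against 0.35. With columns rescaled by median of ratios the order for mew was reversed, at 0.95 in the earlier and 1.13 in the later interval. wb, the other laminin alpha chain, was 28.4, 102 and 87.8 FPKM.

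In discs the laminins were within 2-fold, with LanA at 372, 272 and 324 FPKM in leg, haltere and wing. wb was 25.3 FPKM in leg and 19.0 FPKM in haltere discs and was listed at 0 in wing discs. Tig was 17.3, 37.4 and 8.77 FPKM in leg, haltere and wing discs, at least 2-fold higher in the haltere than in either other disc. In pharate appendages LanA was 582 FPKM in leg, 579 FPKM in haltere and 212 FPKM in wing, and Tig was 584, 1253 and 604 FPKM. The pharate haltere, lowest for mys and if, was thus highest for Tig and level with the leg for LanA.

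The other basement membrane genes, 6 matched of 7, encode the proteins that form the sheet to which integrins attach. Between 6-8 h and 16-18 h all 6 were at least 2-fold higher, beside 34.7% of all genes tested. Their median log2 ratio was 6.08, against -0.43 over all genes above 0 in both columns. Cg25C, a collagen IV chain, was 2.5, 25.9 and 3609 FPKM at the 3 embryonic times, and vkg, the other collagen IV chain, was 1.47, 13.99 and 2291 FPKM. In the discs Ndg, the nidogen gene, was 54.9 FPKM in leg, 8.08 FPKM in haltere and 0.535 FPKM in wing. Between leg and wing discs 5 of 6 genes were within 2-fold, where 14.2% of all genes were at least 2-fold apart. In pharate appendages 6 of 6 were at least 2-fold higher in the leg than in the wing, with a median of 1.94, beside 21.7% of all genes tested. Between haltere and wing 5 of 6 were higher, with a median of 1.81, beside 20.3% of genes. BM-40-SPARC, a collagen-binding protein, was 4601 FPKM in leg, 6791 FPKM in haltere and 843 FPKM in wing. In the haltere against the wing these 5 genes were thus listed higher and the members mys and if lower; trol, the perlecan gene, was also lower, at 231 against 282 FPKM. Haemocyte markers were also listed higher in the haltere, with 4 of 5 at least 2-fold above the wing, beside 20.3% of all genes. Their part in the basement membrane levels was not tested.

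The genes that act inside the cell at integrin adhesions were 22 in number. In embryos 10 of the 19 with a ratio were at least 2-fold higher at 16-18 h than at 6-8 h, beside 34.7% of all genes. In the other direction 1 was lower, beside 31.1%. The median log2 ratio was 1.00 against -0.43 over all genes above 0 in both columns. The genes of the integrin-linked kinase, parvin, PINCH and RSU1, namely Ilk, CG32528, stck and ics, only just passed 2-fold. They were at 1.02, 1.03, 1.01 and 1.00. by, the tensin gene, was 11.05, 10.9 and 259 FPKM at 2-4, 6-8 and 16-18 h, and Vinc, the vinculin gene, was 83.1, 27.7 and 412 FPKM. wech, which encodes a linker between talin and the integrin-linked kinase, was 2556, 919 and 242 FPKM and was the 1 gene at least 2-fold lower. R, the gene of the small GTPase Rap1, and Src64B, a kinase gene, only just missed 2-fold lower. They were at -0.996 and -0.974. Under the rescaling to a common upper quartile, 12 of this list were higher and 1 was lower.

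In discs few of these genes were apart. Between leg and wing discs 0 of the 19 with a ratio were at least 2-fold apart, beside 14.2% of all genes, with a median of -0.05. Between haltere and wing discs 1 of the 19 was at least 2-fold higher, beside 15.5% of all genes, and 1 was lower, beside 4.29%. The higher one was Pax, the paxillin gene, at 1054 against 284 FPKM. The lower one was Src64B, a kinase gene, at 11.6 against 30.5 FPKM.

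In pharate appendages the cytoplasmic genes were listed lower in the haltere, as mys and if were. Between haltere and wing 12 of 20 were at least 2-fold lower and 1 was higher, with a median of -1.13 against -0.11 over all genes above 0 in both columns; 18.8% of all genes tested were lower. Between leg and haltere 11 of 20 were at least 2-fold higher and 0 lower, with a median of 1.16, beside 17.1% of all genes that were higher. Between leg and wing 4 of 20 were higher and 3 lower, beside 21.7% and 14.7% of all genes, so that these shares were near the background. Of the proteins that bind the beta chain, rhea, the talin gene, was 1281 FPKM in leg, 398 FPKM in haltere and 1059 FPKM in wing. Fit2, a kindlin gene, was 2786, 711 and 2386 FPKM in the same order. Ilk, the integrin-linked kinase gene, was 2328, 974 and 2892 FPKM, and CG32528, the gene of its partner parvin, was 1804, 796 and 2757 FPKM. All 4 were thus at least 2-fold lower in the haltere than in leg or wing. These 4 genes were named after their values were seen. Fit1, the other kindlin gene, was within 2-fold between leg and haltere, at 0.78. stck, the PINCH gene, and ics, the RSU1 gene, were within 2-fold between haltere and wing, at -0.90 and -0.92. p130CAS, a signalling adaptor, was the 1 gene higher in the haltere than in the wing, at 43.3 against 14.5 FPKM. Genes of the list that also build muscle were listed further apart between leg and wing than rhea and Fit2, in the same order: Actn, the alpha-actinin gene, was 22713 FPKM in leg, 745 FPKM in haltere and 1739 FPKM in wing, and Zasp52, a Z-disc gene, was 14056, 591 and 907 FPKM. cher, the filamin gene, was 8844, 2562 and 35019 FPKM in leg, haltere and wing, and it was listed at 0 in 5 of the other 6 columns.

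Adhesion receptors of other kinds, listed together with the catenins arm and alpha-Cat that bind cadherins inside the cell, give a comparison from outside the integrin family. Between 6-8 h and 16-18 h 6 of the 9 with a ratio were at least 2-fold lower, beside 31.1% of all genes tested, those at 0 in 1 column included. Both catenin genes were among these 6. Fas3 was the 1 gene at least 2-fold higher, at 1.80, beside 34.7%. Dg, the dystroglycan gene, and Nrg, the neuroglian gene, were higher by less, at 0.85 and 0.53. Of the 4 integrins 1, if, was at least 2-fold higher, and mys, mew and scb were higher by less. ft and ds, a pair of atypical cadherins, were 238 and 193 FPKM at 6-8 h and 32.9 and 34.5 FPKM at 16-18 h. shg, the E-cadherin gene, was 755 FPKM at 6-8 h and 274 FPKM at 16-18 h. This split depended on scaling: with a common upper quartile 2 were lower and 3 higher. Fas3, a receptor of epithelial junctions, was 2.32, 425 and 1483 FPKM at the 3 times. In the discs 0 of 9 were 2-fold apart between leg and wing, beside 14.2% of all genes. Between the pharate haltere and wing 6 of 9 were at least 2-fold lower in the haltere, with a median of -1.24, beside 18.8% of all genes. ds was 67.6, 32.0 and 117 FPKM in pharate leg, haltere and wing.

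**Figure D4:**
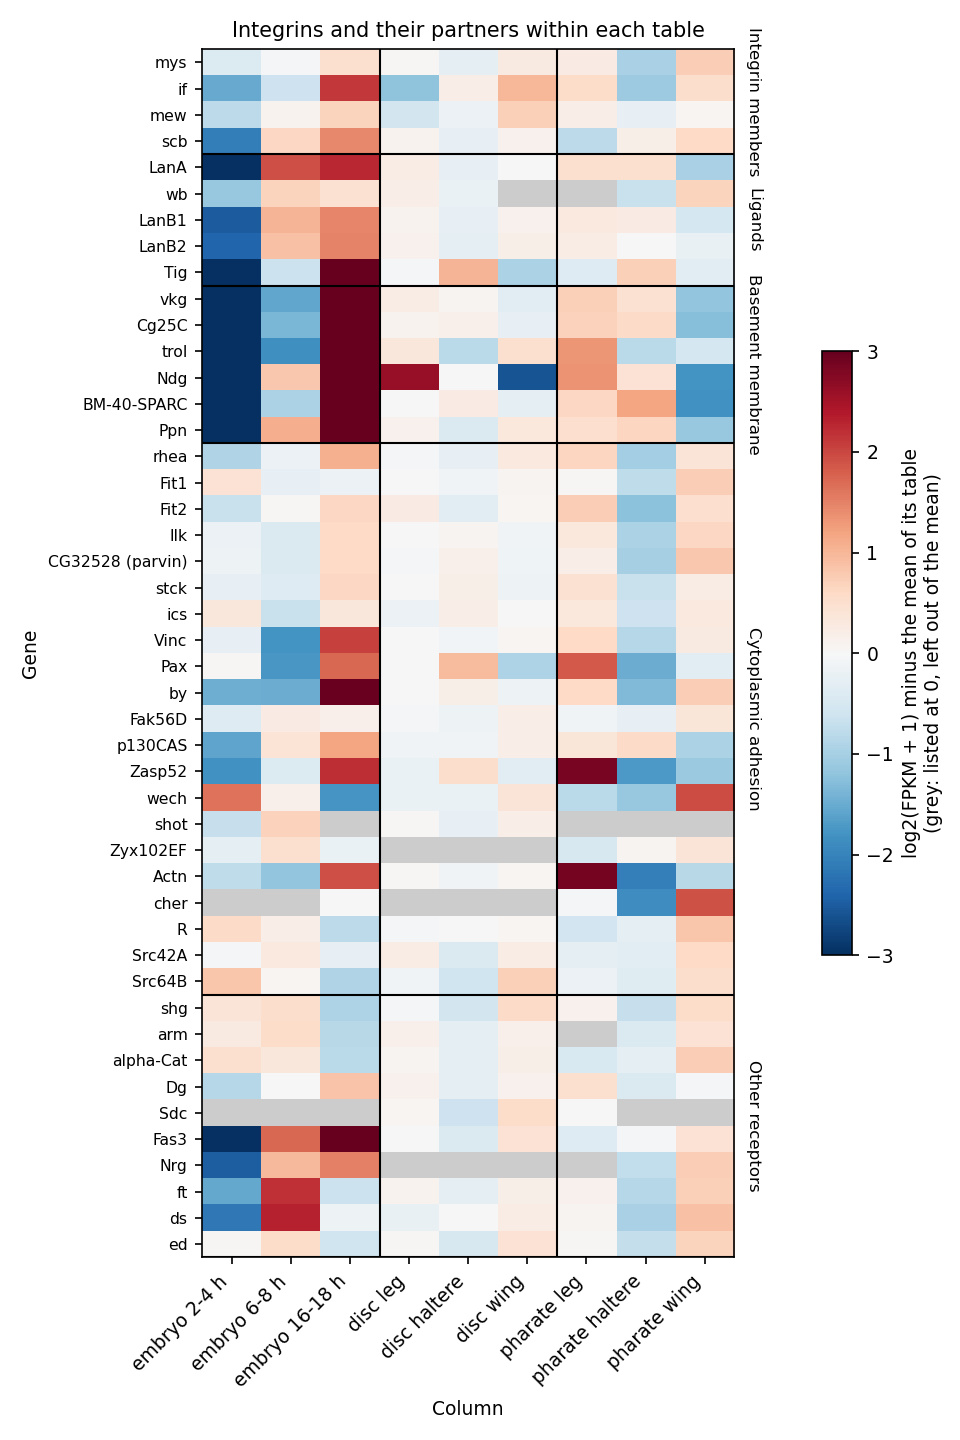
Each cell is log2(FPKM + 1) of a gene minus its mean over those of the 3 columns of the same table in which it was above 0. Shown are the 4 members and 42 genes of 4 lists that were above 0 in at least 1 column. Grey cells were listed at 0 and left out of the mean, and colours saturate at 3 on either side. mys, if, rhea, Fit2 and Ilk share low values in the pharate haltere, where the basement membrane genes except trol lie above their pharate wing values.

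Likeness of profile was measured as Pearson's r over the 9 columns, after log2(FPKM + 1) was centred within each table, among 7008 genes that reached 10 FPKM in at least 1 column of each table. With 3 columns per table these values rest on few points that share libraries, and they are a description. if and mew were the pair of members most alike, with r = 0.89 over 9 columns. mys and if had r = 0.70, mew and scb 0.64, if and scb 0.58, mys and mew 0.57, and mys and scb 0.42. None was among the 5 genes most like another in this pool, in which if stood at place 7 for mew.

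The genes most like mys were UBL3, which encodes a ubiquitin-like protein, with r = 0.989, and CG5004, CG7337, c11.1 and syd, the last an adaptor of axonal transport, with r = 0.964. UBL3 was 144, 181 and 212 FPKM in embryos, 134, 105 and 143 FPKM in leg, haltere and wing discs and 318, 196 and 396 FPKM in the pharate appendages in that order. Of the listed partners Fit2 stood at place 22 for mys with r = 0.924, how, an RNA-binding regulator of tendon cells, at place 29, rhea at 59, Ilk at 66 and CG32528 at 88. Other cytoplasmic adhesion genes stood further down for mys, among them stck at 262, Fit1 at 539 and p130CAS at 3071. For if, the nearest gene was CG11727 with r = 0.978, followed by CG32111, amd with r = 0.947, CG11462 and CG1441. CG32111 was listed at 0 at 2-4 h, and CG1441 at 0 at 2-4 h and in the leg disc. Among genes listed above 0 in all 9 columns, the 5 nearest to if were CG11727, amd, CG11462, CG2950 and CG42272. Of the partners rhea stood at place 49 for if and by at 77, but Fit2 at 826 and Fit1 at 2632.

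For mew the nearest gene was SP1173 with r = 0.972, which was listed at 0 at 2-4 h and in the leg and haltere discs. CG18356, CG2277, CG34360 and CR33987 followed. CG18356 was listed at 0 in the same columns as SP1173, and CG34360 at 0 in the leg and haltere discs. The places of SP1173, CG18356 and CG34360 rest on such zeros. Among genes listed above 0 in all 9 columns, the 5 nearest to mew were CG2277, CR33987, CG11727, if and vn, a ligand gene of the EGF receptor that acts in tendon development, with r = 0.876. For scb the nearest were CG15100 with r = 0.992, Lag1, a ceramide synthase gene, with 0.990, Trp1, a gene of protein translocation into the endoplasmic reticulum, with 0.986, Rhp with 0.976 and CG9674. Of the listed genes Fas3 stood at place 22 for scb with r = 0.959, and pio, a gene of the apical matrix, at place 46.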

How the data were processed

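The authors deposited FPKM values per gene for 3 embryonic stages, 3 imaginal discs and 3 pharate appendages, in 3 tables of 13934 entries, per the file headers. Per the labels' protocols, messenger RNA was taken from total RNA with oligo(dT) beads. Tools named without an order in the submitters' processing notes are TopHat 1.1.4, Cuffdiff, Bowtie 0.12.3, CASAVA 1.7 and MACS2, with the build dm3. Each column holds 1 value for 2 labelled replicates. FPKM summed to between 3.49e+06 and 7.75e+06 per column, and whether they are truly scaled per 1e+06 fragments is not known. An exact 0 can be a failed estimate. The FAIRE peak lists were not analysed here, and neither were DNA sequences.

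From these values ratios were computed with a pseudocount of 1 FPKM in Python 3.11.15 with pandas 2.3.3 and numpy 2.4.6. A gene entered a comparison at 5 FPKM in either column, and calls were made at 2-fold; the share of all genes called was computed beside each. The 248 entries with a repeated name were left out. Older gene names were matched through RefSeq locus tags, and overlaps were read from the same RefSeq table. Members and gene lists were chosen with earlier results of these data known. The text names the 4 members, other subunits and ligands, genes of each list furthest apart in a table, and the 5 genes most like each member. Some further genes of the lists were named outside this rule, among them shg, how and Mmp2, and not all are marked. Alternatives were other pseudocounts (0.1 and 5), no filter, a 1.5-fold threshold and columns rescaled to a common upper quartile or by median of ratios. The ratio script was tested on simulated data.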

Additional observations from a re-analysis of the deposited data

Results flagged for a closer look

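The members were compared between the same appendages as discs and at the pharate stage, and 5 of these 12 pairs of ratios had opposite signs, 1 of them, if between leg and wing, only in that a level pharate ratio lies marginally above 0. The difference between the stages was not tested, since each ratio is a single value, and the tables were normalised separately. Between leg and wing, if was at -2.19 in discs and 0.00 at the pharate stage, 2.19 apart on the log2 scale, and mew was at -1.27 and 0.16, 1.43 apart. Between leg and haltere, if was at -1.40 in discs and 1.62 at the pharate stage, 3.02 apart, the widest gap of the 12. mew was at -0.37 and 0.46 there, 0.83 apart, and scb was at 0.36 and -0.95, a difference of -1.31. Muscle marker sums of leg, haltere and wing were 27758.5, 91903 and 9172 FPKM in discs and 656802, 31439 and 62618 FPKM at the pharate stage, so their order changed as well. The part of muscle in these differences was not tested.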

How the results depend on the processing

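No paired analysis was possible because each tissue or stage has 1 value that combines its replicates; for the same reason no replicate could be left out. Of 216 alternative values of a member ratio, 198 stayed on their side of the threshold, 18 came to pass it and 0 changed sign. Part of these values could not differ, so this tally overstates stability. Dropping the filter leaves a member ratio as it is, and the 1.5-fold threshold reuses the same ratios. Of the 36 member ratios, 7 came to pass 2-fold with a common upper quartile and 4 with median of ratios. Between 6-8 h and 2-4 h the members at least 2-fold apart were 1 as deposited, 3 with a common upper quartile and 3 at a 1.5-fold threshold. Between 16-18 h and 6-8 h they were 1 as deposited, 4 with a common upper quartile, 4 with median of ratios and 2 at 1.5-fold. Between haltere and wing discs they were 0, and 2 at 1.5-fold. The rescalings moved the median of all genes by at most 0.99 in embryos, by at most 0.22 at the pharate stage and by less than 0.1 in discs. Of the 20 genes most like the members, 6 were shared with a list by Euclidean distance, 16 with a list made without the haltere disc, 16 with a pseudocount of 5 and 15 among genes above 0 in all 9 columns, a pool chosen after seeing the data. Genes listed at 0 in 1 column were kept out of list counts, also after seeing the data. The shares of all genes set beside those counts keep such genes. Of 144 list counts 30 moved by over 1.5 times at a 1.5-fold threshold, 14 with a pseudocount of 5, 11 with a common upper quartile, 6 with no filter, 5 with median of ratios and 2 with a pseudocount of 0.1. Depth was unknown, and without a spread between replicates no difference here has an error.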

Other observations

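Genes of the apical matrix, the layer that holds the outer face of the epithelium to the cuticle, were 8 matched of 9. pio, a zona pellucida domain gene, was 1523, 804 and 1083 FPKM in leg, haltere and wing discs and 4323, 3781 and 9294 FPKM in the pharate appendages. Others of the family had the opposite stage pattern in the listed values, although the tables were normalised separately: CG7802 was 527, 245 and 432 FPKM in the discs and 4.39, 2.52 and 13.2 FPKM in the pharate appendages. dyl was 2018 FPKM at 16-18 h and 14.2 FPKM at 6-8 h.

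Among genes of matrix turnover, Mmp1, a matrix metalloprotease gene, was 258 FPKM in the pharate leg, 242 FPKM in the haltere and 648 FPKM in the wing. Timp, which encodes the inhibitor of these proteases, was 362, 1125 and 101 FPKM. Mmp2, the other metalloprotease gene, was 42.7, 52.4 and 47.7 FPKM. Of 8 genes of tendon cells, to which muscles attach through integrins, 5 were at least 2-fold lower and 1 was higher in the pharate haltere than in the wing, beside 18.8% and 20.3% of all genes. sr, the tendon selector, was 185 FPKM in the pharate leg, 11.8 FPKM in the haltere and 25.7 FPKM in the wing, and how was 1075, 402 and 949 FPKM, the order that rhea had.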
